A study of Homo sapiens with 8 samples.

Results

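The genes described here are the zinc finger genes of human chromosome 19 that were expressed in Panc10.05 pancreatic cancer cells with or without resistance to indisulam. Members were chosen as all protein-coding genes of chromosome 19 whose symbol is ZNF followed by a number in GENCODE release 44, with a mean of at least 0.5 CPM, the read count scaled by the assigned reads of its library, over all libraries. Of 249 such genes, 189 (75.9%) met the level rule and 60 did not. The mean CPM therefore chose the members, and it is given below as a description only. The members just inside the threshold were ZNF540 at 0.526, ZNF570 at 0.573 and ZNF350 at 0.633 mean CPM, and the genes just outside it were ZNF223 at 0.359, ZNF497 at 0.335 and ZNF233 at 0.267.

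RNA was sequenced in 8 libraries, 2 in each of 4 groups. Untreated parental cells received no drug, and treated parental cells received 2 µM of indisulam for 18 h. Treated resistant cells were a line with acquired resistance kept on 2 µM of the drug without a break, and untreated resistant cells were the same line after 1 week off the drug. Indisulam joins the splicing factor RBM39 to the ubiquitin ligase receptor DCAF15, which leads to loss of the RBM39 protein. Panc10.05 is an established pancreatic cancer line, and the resistant line came from it by culture in rising concentrations of the drug. The 2 libraries of a group are described by the study as technical replicates, so each p-value concerns the spread between these libraries only. The sample titles name Panc10.05 and the growth notes of the labels name A549, and the titles were followed. Of 7 epithelial markers 6 were above 1 CPM on average, with a summed level of 6230 to 12500 CPM per library, whereas the summed level of 5 fibroblast markers was 1.34 to 4.12 CPM, that of 4 immune markers 0.0746 to 0.38 CPM and that of 3 endothelial markers 0.174 to 0.35 CPM. These lists check for epithelial cells and were not chosen to tell Panc10.05 from A549. Reads assigned to genes numbered 65266253 to 108002436 per library. RBM39 transcript was at 334 ± 3.25 and 724 ± 10.7 CPM (mean ± SD, n = 2) in untreated parental and treated parental cells, and at 305 ± 8.58 and 584 ± 9.62 CPM in untreated resistant and treated resistant cells.

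Zinc finger proteins of this type carry an array of short Cys2His2 fingers, each of which holds a zinc ion and reads a few bases of DNA, so that a long array can bind a long and specific site. Most of those encoded on chromosome 19 also carry a KRAB box at the amino end, which binds the scaffold protein TRIM28. TRIM28 in turn recruits the histone methyltransferase SETDB1, heterochromatin proteins and histone deacetylases, and this complex is best known for silencing transposable elements. The genes arose by repeated tandem duplication and lie side by side in groups along the chromosome.

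The repeat that defines the family can be read in the genes themselves. The stretches below are the coding DNA, on GRCh38 and 5′ to 3′ on the coding strand, of the first finger that is followed by the linker joining it to the next finger. They were chosen from the most finger-rich member (ZNF91), the member with the highest level (ZNF146) and 3 members that differed strongly between the lines. Each is 84 bases long and lies in the last exon of its gene, and capitals mark the codons of the 2 cysteines and 2 histidines that hold the zinc ion. They lie at chr19:23362100-23362183 (minus strand) for ZNF91, chr19:36236654-36236737 (plus strand) for ZNF146, chr19:51965754-51965837 (minus strand) for ZNF350, chr19:20625193-20625276 (minus strand) for ZNF626 and chr19:9529124-9529207 (minus strand) for ZNF426.
ZNF91: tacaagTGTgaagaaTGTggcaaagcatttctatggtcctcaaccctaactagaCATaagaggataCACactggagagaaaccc
ZNF146: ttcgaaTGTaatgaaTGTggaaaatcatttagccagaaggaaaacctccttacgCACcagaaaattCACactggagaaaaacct
ZNF350: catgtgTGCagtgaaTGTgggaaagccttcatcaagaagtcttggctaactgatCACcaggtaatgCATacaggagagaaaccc
ZNF626: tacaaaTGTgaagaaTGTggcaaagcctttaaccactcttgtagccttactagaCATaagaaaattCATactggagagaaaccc
ZNF426: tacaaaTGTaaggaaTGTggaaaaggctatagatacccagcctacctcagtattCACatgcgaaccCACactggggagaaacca

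Translated from the annotated coding sequences, the members held 1 to 31 fingers each, with a median of 12. A letter pattern of the KRAB box was found in 158 members and not in 31, and a SCAN domain pattern, another protein interaction domain, was found in 3, namely ZNF274, ZNF444 and ZNF446. The transcripts were rich in A and T for this chromosome. Their median GC content was 42.5%, against 48.5% over all genes tested and 60.8% over the other protein-coding genes of chromosome 19, and their median length was 4056 bases against 2669 over all genes tested. Of the members, 114 shared exon positions with another gene, on the opposite strand in 62 of them, and 20 held less than 50% of the reads of such a pair. Whether reads were counted by strand was not given in the sources used here, so the values of those 20 are uncertain. A stretch of at least 150 bases with at least 98% identity to another gene was found in 48 members, and it covered over 20% of the transcript in 11.

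The RefSeq promoter windows on GRCh38.p14 matched 170 of the 189 members by symbol, and the 250 bases before the start site were searched on both strands for exact letters. An ETS-type motif (CCGGAAGT) stood in 15.9% of the members' promoters, against 10.2% for zinc finger genes of other chromosomes, 3.9% for other genes of chromosome 19 and 3.64% of all promoters. The CCAAT box (CCAAT) stood in 48.2% of the members' promoters and 33.0% of all, the GC box (GGGCGG) in 61.8% and 42.3% (58.8% for other genes of chromosome 19 and 57.0% for zinc finger genes of other chromosomes), and the TATA box (TATAAA) in 2.35% and 11.1%. The cAMP response element (TGACGTCA) stood in 2.94% and 1.77%, the NRF1 motif (GCGCATGCG) in 2.94% and 1.78%, the YY1 motif (AAGATGGCG) in 2.94% and 0.641%, and the ZBTB33 motif (CTCGCGAG) in 0.588% and 0.916%. A window of a member held a median of 16 CG pairs, against 11 over all promoters, 15 over other genes of chromosome 19 and 19 over zinc finger genes of other chromosomes. These matches are letters in a window and not measured binding. The promoters of 3 members that differed strongly between the lines are given below, 5′ to 3′ towards the gene and with each CG pair in capitals, at chr19:51986841-51987090 for ZNF350, chr19:20661572-20661821 for ZNF626 and chr19:9538646-9538895 for ZNF426, all on the minus strand. They held 15, 7 and 16 CG pairs. The window of ZNF350 held the CCAAT box, that of ZNF626 the CCAAT and GC boxes, and that of ZNF426 the GC box and the cAMP response element.
ZNF350: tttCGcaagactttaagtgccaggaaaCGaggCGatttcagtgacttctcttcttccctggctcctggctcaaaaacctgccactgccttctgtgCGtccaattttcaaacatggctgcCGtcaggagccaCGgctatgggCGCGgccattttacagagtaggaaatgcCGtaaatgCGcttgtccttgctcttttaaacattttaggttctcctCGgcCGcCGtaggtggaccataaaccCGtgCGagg
ZNF626: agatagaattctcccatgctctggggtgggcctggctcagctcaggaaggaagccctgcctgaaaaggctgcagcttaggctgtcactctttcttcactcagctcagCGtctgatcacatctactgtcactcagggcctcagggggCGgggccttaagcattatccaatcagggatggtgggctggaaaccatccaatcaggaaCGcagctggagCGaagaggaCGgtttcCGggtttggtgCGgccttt
ZNF426: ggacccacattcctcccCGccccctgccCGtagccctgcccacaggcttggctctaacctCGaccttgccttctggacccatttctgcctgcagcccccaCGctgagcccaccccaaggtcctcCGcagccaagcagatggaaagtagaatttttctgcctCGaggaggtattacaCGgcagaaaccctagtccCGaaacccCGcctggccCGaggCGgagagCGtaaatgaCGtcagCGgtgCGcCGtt

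Expressed members spanned a wide range of level. The median of their mean levels was 9.01 CPM and the highest was 179, and 1 member passed 100 CPM. Together they held 0.2448% to 0.2954% of the assigned reads of a library. The highest was ZNF146, a protein made of fingers alone, with every library between 162 and 209 CPM. It was also first per transcript length, at 53.6 CPM per kb, followed by ZNF544 at 20.9, ZNF787 at 19.4 and ZNF274 at 18.6 CPM per kb. ZNF274, which is known to recruit SETDB1 to the ends of zinc finger genes, ranged from 47.2 to 56.6 CPM over the 8 libraries. ZNF91, the repressor of SVA retrotransposons and the member with the most fingers, ranged from 19.2 to 24.1 CPM. In bulk RNA, fewer cells of a type and less RNA per cell cannot be told apart.

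The summed level of the members was higher with indisulam in both lines and lower in the resistant line. The sum was 2772 ± 19.1 CPM in untreated parental, 3034 ± 8.49 in treated parental, 2482 ± 19.8 in untreated resistant and 2618 ± 21.9 in treated resistant cells (mean ± SD, n = 2), and no group overlapped another. Sums were not tested, since the smallest p of an exact permutation test on 2 and 2 libraries is 0.333. The tests below come from a quasi-likelihood model of the counts of all 16661 genes that passed a filter on low counts, and a gene was called at a Benjamini-Hochberg adjusted p under 0.05. All 189 members were among the genes tested. In the comparisons of 2 groups, the libraries of every called member did not overlap, and neither did those of some members that were not called. Libraries were apart for 69.3% to 86.8% of members, beside 73.0% to 83.8% of all genes tested, so with 2 libraries a group this says little by itself.

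The first question was how the acute response of parental cells to indisulam involved these genes. The transcripts of 88 members rose and those of 31 fell after 18 h, and 70 were not called. As a share of members this was 46.6% higher and 16.4% lower, beside 31.6% higher and 26.6% lower over all genes tested. The median change was 0.138 on the log2 scale, against 0.014 over all genes, so most changes were small. Only 2 members, both under 2 CPM and ZNF350 (described below) among them, were called with a change above 1 log2 unit. ZNF350 is counted among the 88, but its change rests on 1 read against 8 and is taken below as a description with no test. Zinc finger genes of other chromosomes gave 79 higher and 51 lower of 214 (median 0.05), and the other protein-coding genes of chromosome 19 gave 165 higher and 236 lower of 638 (median -0.044). Scaled by library totals alone, which moved the median of all genes to -0.051, the members gave 63 higher and 38 lower. After correcting for GC content and length, 75 were higher and 33 lower and the members' median stood 0.048 above that of all genes, in place of 0.123. The share also moved with level. Among members of 10 CPM and over, 50 of 87 were higher and 15 lower, beside 50.5% and 24.5% of all genes at that level, and among members of 2 to 10 CPM 34 of 84 were higher and 12 lower, beside 457 higher and 841 lower of 2288 genes at that level. Members with the KRAB pattern gave 75 higher and 25 lower of 158, and those without it 13 higher and 6 lower of 31.

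**Figure D1:**
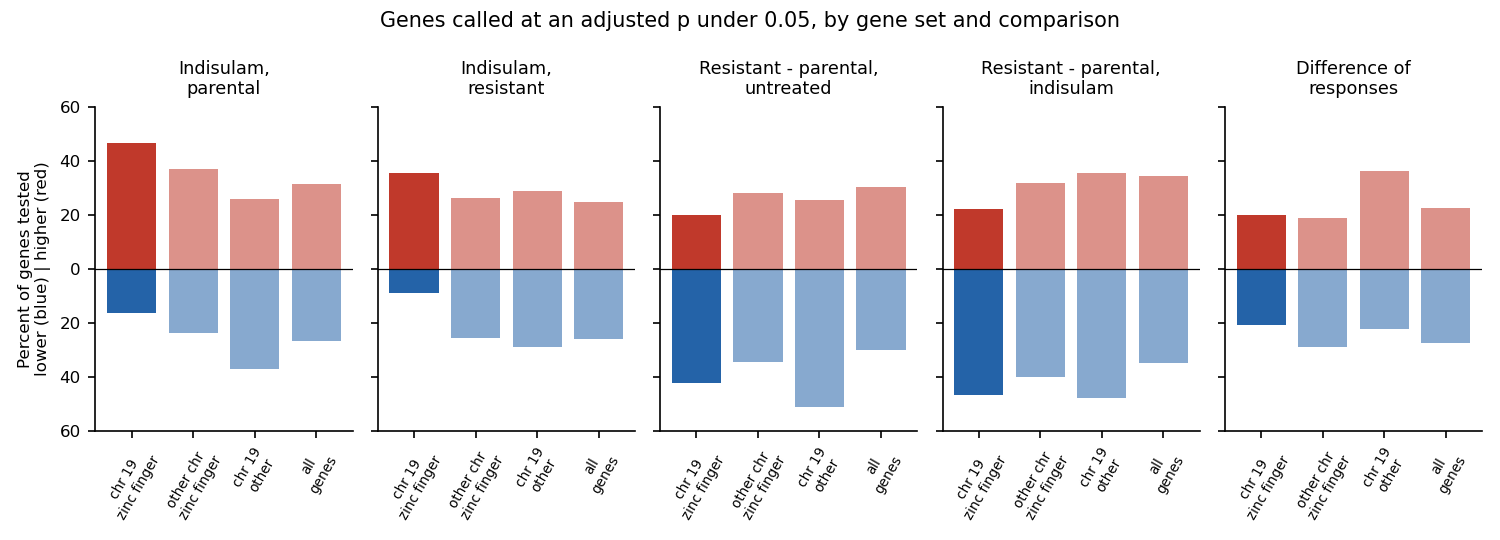
Percent of genes called higher (red, upward) and lower (blue, downward) at an adjusted p under 0.05 in 5 comparisons, for the 189 chromosome 19 zinc finger genes (full colour), the 214 zinc finger genes of other chromosomes, the 638 other protein-coding genes of chromosome 19 and all 16661 genes tested. With indisulam the first bar reaches 46.6% higher in parental and 35.4% in resistant cells, and between the lines it reaches 42.3% and 46.6% lower.

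ZNF850, a KRAB member with 29 fingers, rose most among members above 1 CPM. It was at 6.71 and 6.79 CPM in untreated parental and 11.5 and 11.7 CPM in treated parental libraries, which gave a log2 fold change of 0.78 with a standard error of 0.055 (adjusted p = 5.5e-11). ZNF227 went from 13.4 and 13.8 to 22.9 and 22.5 CPM (0.74 ± 0.048, adjusted p = 1.1e-11). ZNF525 went from 31.9 and 32.1 to 51.9 and 50.8 CPM (0.68 ± 0.034, adjusted p = 2.1e-13). The libraries of each pair lay close together beside the step between the groups. ZNF285, ZNF221 and ZNF557 rose by 0.72, 0.61 and 0.61 log2 units.

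The largest fall was that of ZNF671, from 5.63 and 5.82 to 2.79 and 3.02 CPM (-0.98 ± 0.090, adjusted p = 3.6e-09). ZNF586 went from 12.1 and 11.6 to 6.94 and 7.54 CPM (-0.71 ± 0.057, adjusted p = 3.9e-10), although it held only 19.7% of the reads of the pair it forms with ZNF587B, with which it shares exon positions. ZNF331, an imprinted gene, went from 6.34 and 6.78 to 3.96 and 4.12 CPM (-0.70 ± 0.074, adjusted p = 3.1e-08). ZNF738, ZNF415 and ZNF653 fell by 0.88, 0.75 and 0.67 log2 units. All of these treated libraries lay below both of their untreated libraries.

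In resistant cells, the drug comparison sets cells kept on indisulam against cells taken off it. The transcripts of 67 members were higher on the drug and those of 17 were lower, and 105 were not called. This was 35.4% higher and 8.99% lower, beside 24.9% and 25.8% of all genes, with a median of 0.095 against 0.009. The zinc finger genes of other chromosomes gave 56 higher and 55 lower (median 0.004), and the other genes of chromosome 19 gave 184 higher and 185 lower (median 0.008). Members of 10 CPM and over gave 38 higher and 11 lower of 87, beside 26.5% and 38.1% of all genes at that level. Among members of 2 to 10 CPM 28.6% were higher and 5.95% lower, beside 30.4% and 22.9%, so the share of higher calls there was near the background. No member fell by more than 0.5 log2 units in this comparison, and 9 rose by more than that.

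ZNF850 was again the member with the largest rise above 1 CPM, from 6.13 and 5.93 to 14.9 and 14.5 CPM (1.28 ± 0.059, adjusted p = 1.3e-14). Its span, but no annotated exon, overlaps that of ZNF567 on the opposite strand. ZNF567 was at 9.87 and 9.45 CPM off and 9.58 and 10.5 CPM on the drug (0.06 ± 0.061, adjusted p = 0.43). ZNF555 and ZNF77, neighbours near the tip of the short arm, rose by 0.85 ± 0.12 (adjusted p = 2.6e-06) and 0.78 ± 0.076 (adjusted p = 8.3e-09). ZNF77 was at 3.86 and 4.07 CPM off and 7.08 and 6.61 CPM on the drug. ZNF580, a member with 3 fingers and no KRAB pattern, rose from 7.45 and 8.96 to 14.6 and 14.6 CPM (0.84 ± 0.068, adjusted p = 1.1e-09), and it shares exon positions with ZNF581 and held 40.3% of the reads of that pair. ZNF551 had the largest called fall among members above 1 CPM apart from ZNF345, from 42.9 and 43.5 to 34.3 and 32.7 CPM (-0.37 ± 0.039, adjusted p = 2.7e-08). The fall of ZNF345 was of the same size (-0.37 ± 0.14, adjusted p = 0.028), and it was no longer called when treated resistant replicate 2 was left out (-0.29, adjusted p = 0.22) or either untreated resistant library (-0.41 and -0.34).

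The drug comparisons of the lines share no library. Of the members, 43 were higher in both, 8 were lower in both, 7 were higher in parental and lower in resistant cells, 4 went the other way, and 48 were called in neither. As shares of members, 22.8% were higher in both and 4.23% lower in both, beside 11.9% and 10.5% of all genes tested, and 25.4% were called in neither, beside 24.8%. Across the members, the changes had a Pearson correlation of 0.31, and of 0.33 without ZNF350 (188 genes, which share libraries and are not independent replicates), beside 0.20 over all genes tested and 0.37 over those of 10 CPM and over. In a group of 35 members on the long arm, from 51.57 to 53.58 Mb, 21 were higher and 3 lower in parental cells, and 21 were higher and 2 lower in resistant cells. Over all genes tested, 31.6% and 26.6% were higher and lower in parental cells, and 24.9% and 25.8% in resistant cells. This group is 1 of 17 and was picked after its values were seen. The 39 members from 57.19 to 58.48 Mb gave 14 higher and 13 lower in parental cells, and 11 and 6 in resistant cells. The 22 from 36.18 to 37.82 Mb gave 13 and 2, and then 5 and 3.

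**Figure D2:**
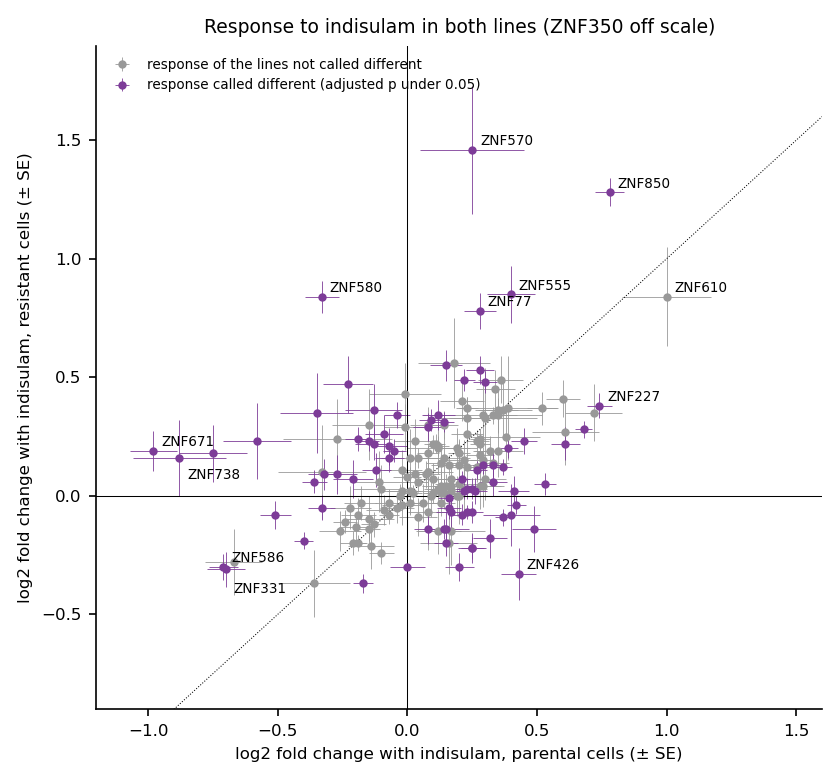
Log2 fold change with indisulam in parental cells (x axis) and in resistant cells (y axis) for each member but ZNF350, which lies off scale at 3.14 and 0.39, with standard errors. Purple points were called different between the lines, whose exposure to the drug also differed, grey points were not, and the dotted line marks equal change. ZNF671 lies far to the left with a change of -0.98 in parental and 0.19 in resistant cells, and ZNF850 lies at the upper right with 0.78 and 1.28.

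The response differed between the lines for 77 members by the interaction term of the model. In parental cells this response is 18 h of drug against none. In resistant cells it is unbroken culture on the drug against 1 week off it. Line and exposure therefore cannot be told apart in this term. The resistant change lay above the parental one in 38 and below it in 39, that is 20.1% and 20.6%, beside 22.7% and 27.5% of all genes. This split depended on the scaling. It was 55 above and 20 below with library totals alone, which moved the median of all genes to 0.125. It was 50 and 20 when genes under a mean of 1 CPM were left out, 51 and 25 among protein-coding genes alone, and 43 and 28 after correcting for GC content and length. Of the members' calls 49.4% lay above in the main fit, beside 45.2% of the calls over all genes tested. In these alternatives the members' share was 73.3%, 71.4%, 67.1% and 60.6% in the same order. That over all genes was 65.8%, 54.2%, 50.2% and 44.7%. ZNF671 differed by 1.16 ± 0.12 (adjusted p = 7.0e-08), with 5.28 and 5.84 CPM in untreated resistant and 5.83 and 6.70 CPM in treated resistant libraries beside its parental fall. ZNF580 also differed by 1.16 (SE 0.095, adjusted p = 3.4e-09), since it fell in parental cells, from 11.1 and 10.9 to 9.11 and 8.39 CPM, and rose in resistant cells. The parental fall was not called after correcting for GC content and length (-0.09, adjusted p = 0.13). ZNF738, ZNF415, ZNF493 and ZNF490 followed with differences of 1.05, 0.93, 0.82 and 0.71. In the other direction ZNF426 differed by -0.76 ± 0.13 (adjusted p = 3.9e-05), ZNF136 by -0.62 ± 0.13 (adjusted p = 2.9e-04) and ZNF566 by -0.50 ± 0.081 (adjusted p = 2.0e-05). The difference of ZNF490 was lost without treated parental replicate 1 (0.52, adjusted p = 0.051).

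The next question was how the resistant line differed from the parental line. Off the drug, 38 members were higher and 80 lower in resistant cells, or 20.1% and 42.3%, beside 30.3% and 29.9% of all genes, with a median of -0.095 against -0.015. On the drug, 42 members were higher and 88 lower, or 22.2% and 46.6%, beside 34.6% and 34.9% of all genes, with a median of -0.116 against 0.003. Among members of 10 CPM and over, 48.3% were lower on the drug, beside 52.3% of all genes at that level, and 20.7% were higher, beside 29.5%, so that at this level the share of lower calls did not exceed the background. Off the drug the shares at that level were 43.7% lower and 21.8% higher, beside 34.5% and 37.1%. With library totals alone the split on the drug was 55 higher and 69 lower, and without genes under a mean of 1 CPM it was 53 and 71. Of the members' calls 44.4% and 42.7% were then higher, beside 59.7% and 52.7% of the calls over all genes. Of the members, 60 were lower and 22 were higher in both of these comparisons, which share no library but compare the same lines. The same joint counts were not made over all genes tested, so nothing particular to the members is read from them. The counts of higher members include ZNF350 and ZNF358, described below, which became members through the resistant line. Zinc finger genes of other chromosomes gave 60 higher and 74 lower off the drug and 68 and 86 on it, and the other protein-coding genes of chromosome 19 gave 164 and 327 off the drug and 226 and 305 on it.

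A larger share of members was lower in resistant cells on the short arm than on the long arm. Of the 54 members there, 43 were lower and 2 higher off the drug (median -0.524), and 48 were lower and 2 higher on it (median -0.447). Of the 135 members of the long arm, 37 were lower and 36 higher off the drug (median -0.015), and 40 were lower and 40 higher on it (median -0.019). The other protein-coding genes of the chromosome followed the same division, with 238 lower and 38 higher of 321 on the short arm off the drug (median -0.458) and 89 lower and 126 higher of 317 on the long arm (median 0.044). In windows of 4 Mb, the median of these other genes off the drug was -0.47 from 0 to 4 Mb, -0.52 from 4 to 8 Mb, -0.54 from 8 to 12 Mb, -0.49 from 12 to 16 Mb and -0.07 from 16 to 20 Mb. Members stood at a median of -0.91 (4 genes), 0.97 (2 genes), -0.62 (18 genes), -0.46 (10 genes) and -0.32 (4 genes) in the same windows. DCAF15, the receptor through which indisulam acts, lies in this stretch at 13952509 to 13961449 on chromosome 19. It was at 42.0 ± 0.548 CPM in untreated parental and 24.2 ± 0.629 CPM in untreated resistant cells (-0.80 ± 0.040). With indisulam it was at 40.3 ± 1.04 and 26.6 ± 1.16 CPM (-0.60 ± 0.040), and it rose by 0.14 ± 0.043 with the drug in resistant cells. The study reports that resistant Panc10.05 cells still lost much of their RBM39 protein on the drug. Whether the level of DCAF15 transcript bears on resistance was not tested. Calls of the drug response were spread over both arms, with 25 higher and 8 lower of 54 on the short arm in parental cells and 63 higher and 23 lower of 135 on the long arm. The arms and windows were set out after the line comparison had been seen, and no test was made of the arms.

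**Figure D3:**
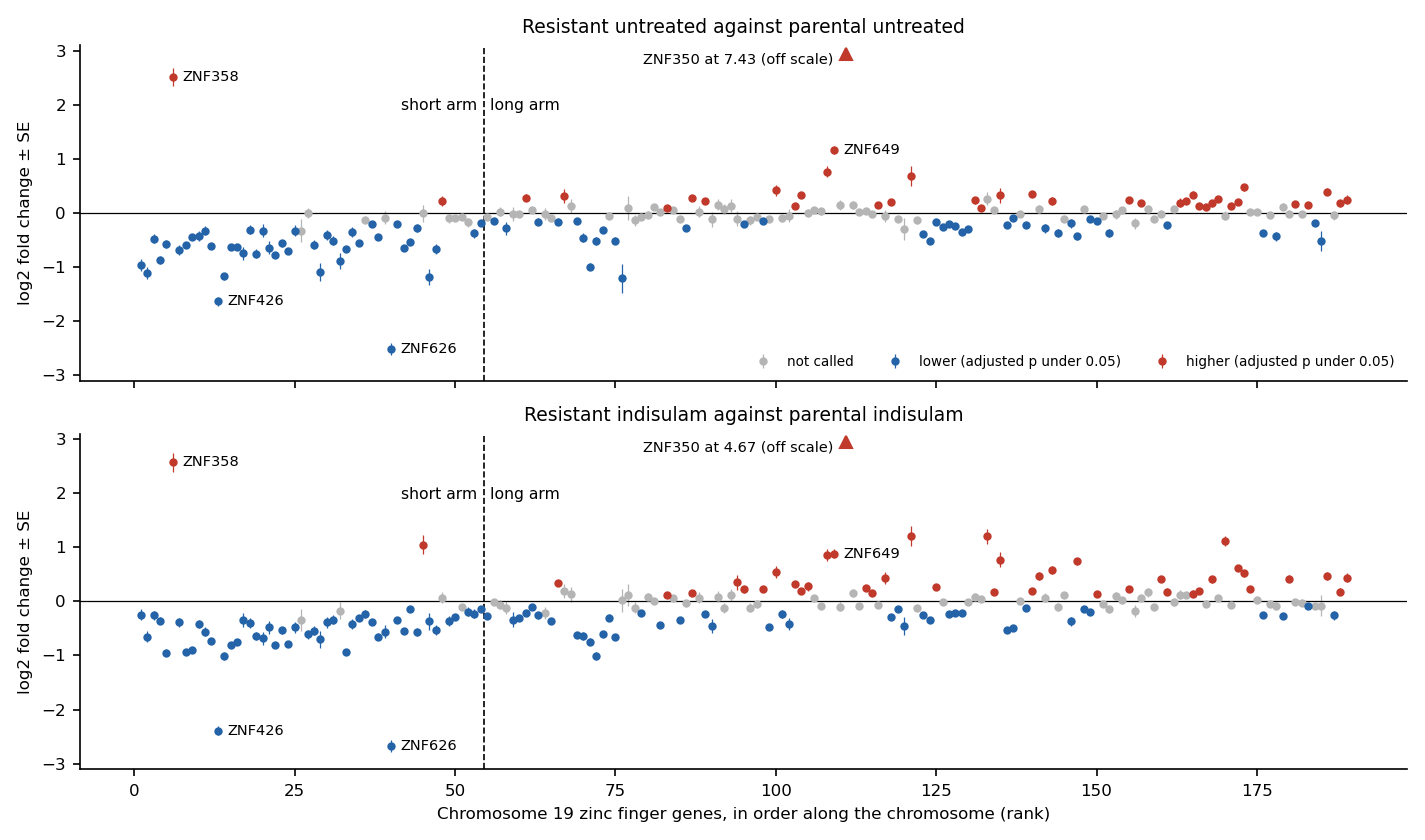
Log2 fold change of resistant over parental cells with its standard error for each of the 189 members in order along chromosome 19, untreated (top) and with indisulam (bottom). Blue points were called lower, red points higher and grey points were not called, the dashed line divides the short from the long arm, and triangles mark ZNF350, off scale at 7.43 and 4.67. Left of the line 43 and then 48 of 54 points are blue.

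On the short arm, all 10 members between 8.51 and 9.79 Mb were lower off and on the drug, beside 29.9% and 34.9% of all genes tested. ZNF426, a KRAB member at 9523223 to 9538645, was at 8.97 and 9.32 CPM in untreated parental and 3.20 and 2.68 CPM in untreated resistant libraries (-1.63 ± 0.086, adjusted p = 5.8e-14). With indisulam it was at 12.7 and 12 CPM in parental and 2.09 and 2.54 CPM in resistant libraries (-2.39 ± 0.086, adjusted p = 4.0e-17). Its neighbour ZNF121 was at 99.8 and 103 CPM in untreated parental and 41.7 and 48.6 CPM in untreated resistant libraries (-1.17 ± 0.067, adjusted p = 1.7e-06). ZNF562 was at 79.3 and 81.3 against 52.7 and 52.1 CPM (-0.62 ± 0.031, adjusted p = 2.4e-14), and ZNF317 at 60.1 and 61.5 against 45.8 and 43.8 CPM (-0.44 ± 0.034, adjusted p = 7.4e-11). The parental and resistant libraries were thus apart at both high and low levels. Between 11.48 and 12.64 Mb, 15 of 17 members were lower off the drug, and ZNF136 and ZNF844 were not called.

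Next to the centromere, between 19.67 and 24.13 Mb, 12 of 20 members were lower off the drug and 1 was higher, beside 29.9% and 30.3% of all genes tested. ZNF626, a KRAB member at 20619939 to 20661596, had the largest fall of all members. It was at 5.83 and 5.76 CPM in untreated parental, 6.44 and 5.85 in treated parental, 0.932 and 1.11 in untreated resistant and 0.934 and 0.988 CPM in treated resistant libraries. The differences were -2.51 ± 0.11 untreated (adjusted p = 1.6e-15) and -2.67 ± 0.11 with indisulam (adjusted p = 4.2e-16). ZNF493 was at 2.33 and 2.28 CPM in parental and 0.932 and 1.11 CPM in untreated resistant libraries (-1.18 ± 0.14, adjusted p = 8.7e-08). ZNF91, in the same group, was at 20.1 and 20.6 against 19.2 and 19.2 CPM (-0.08 ± 0.041, adjusted p = 0.088).

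ZNF358 stood against its neighbours on the short arm. This member, which has 9 fingers and no KRAB pattern, was at 0.384 and 0.421 CPM in untreated parental and 0.507 and 0.478 in treated parental libraries, and at 2.05 and 2.59 in untreated resistant and 3.20 and 2.70 CPM in treated resistant libraries. The differences between the lines were 2.52 ± 0.17 untreated and 2.57 ± 0.17 with indisulam. It averaged 0.407 and 0.476 CPM in the parental groups, so it became a member through the resistant line and these differences are a description with no test. ZNF738, between 2 members that were lower, was at 1.11 and 1.15 CPM in parental and 1.05 and 1.22 CPM in untreated resistant libraries, and was higher in resistant cells on the drug (1.05 ± 0.18, adjusted p = 2.0e-05).

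The largest difference of any member was that of ZNF350, which was named after its values were seen since its mean lies under 1 CPM. ZNF350 encodes a KRAB repressor with 8 fingers, also known as ZBRK1, that binds BRCA1. It had 0 and 1 reads in untreated parental, 4 and 4 in treated parental, 78 and 68 in untreated resistant and 104 and 120 in treated resistant libraries. In CPM these were 0 and 0.00936, 0.0534 and 0.0516, 1.05 and 1.05, and 1.54 and 1.25. The parental libraries were at or near 0 and the resistant libraries were all above 1 CPM. The pooled level in untreated resistant cells was 227 times that in untreated parental cells (95% exact interval 40.2 to 9040, counting error only), and with indisulam the ratio was 26.1 (13.0 to 61.2). The fitted log2 fold changes of 7.43 ± 0.45 and 4.67 ± 0.31 depend on the small count that the fit adds to each gene. ZNF350 became a member through the resistant libraries alone, so these differences too are a description with no test. Within parental cells, indisulam took it from 1 to 8 reads, a ratio of 11.4 (1.52 to 504). The fitted change of 3.14 ± 1.0, or 2.31 without untreated parental replicate 1, is likewise a description with no test.

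ZNF350 lies at 51964340 to 51986856 in the group of 35 members on the long arm, and nearby members on the side towards the centromere differed in the same direction. ZNF649 was at 2.91 and 2.87 CPM in untreated parental, 3.29 and 3.15 in treated parental, 6.49 and 6.58 in untreated resistant and 6.05 and 5.83 CPM in treated resistant libraries (1.17 ± 0.079 off the drug, adjusted p = 5.2e-12). ZNF577 was at 2.08 and 1.75 against 3.24 and 3.31 CPM off the drug (0.77 ± 0.11, adjusted p = 2.5e-06). ZNF577 and ZNF649 share exon positions on the same strand, and ZNF577 held 37.6% of the reads of the pair. ZNF613, between ZNF649 and ZNF350, was not called (0.15, adjusted p = 0.14), and neither was ZNF615 on the other side (0.15, adjusted p = 0.086). Further along, 8 neighbours in a row from ZNF701 to ZNF888 were lower in resistant cells off the drug, with log2 fold changes from -0.17 (ZNF611) to -0.52 (ZNF83). This run was picked after its values were seen, and ZNF83 held 49.6% of the reads of a pair that shares exon positions, so its value is uncertain. The group as a whole was split, with 10 members higher and 11 lower.

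**Figure D4:**
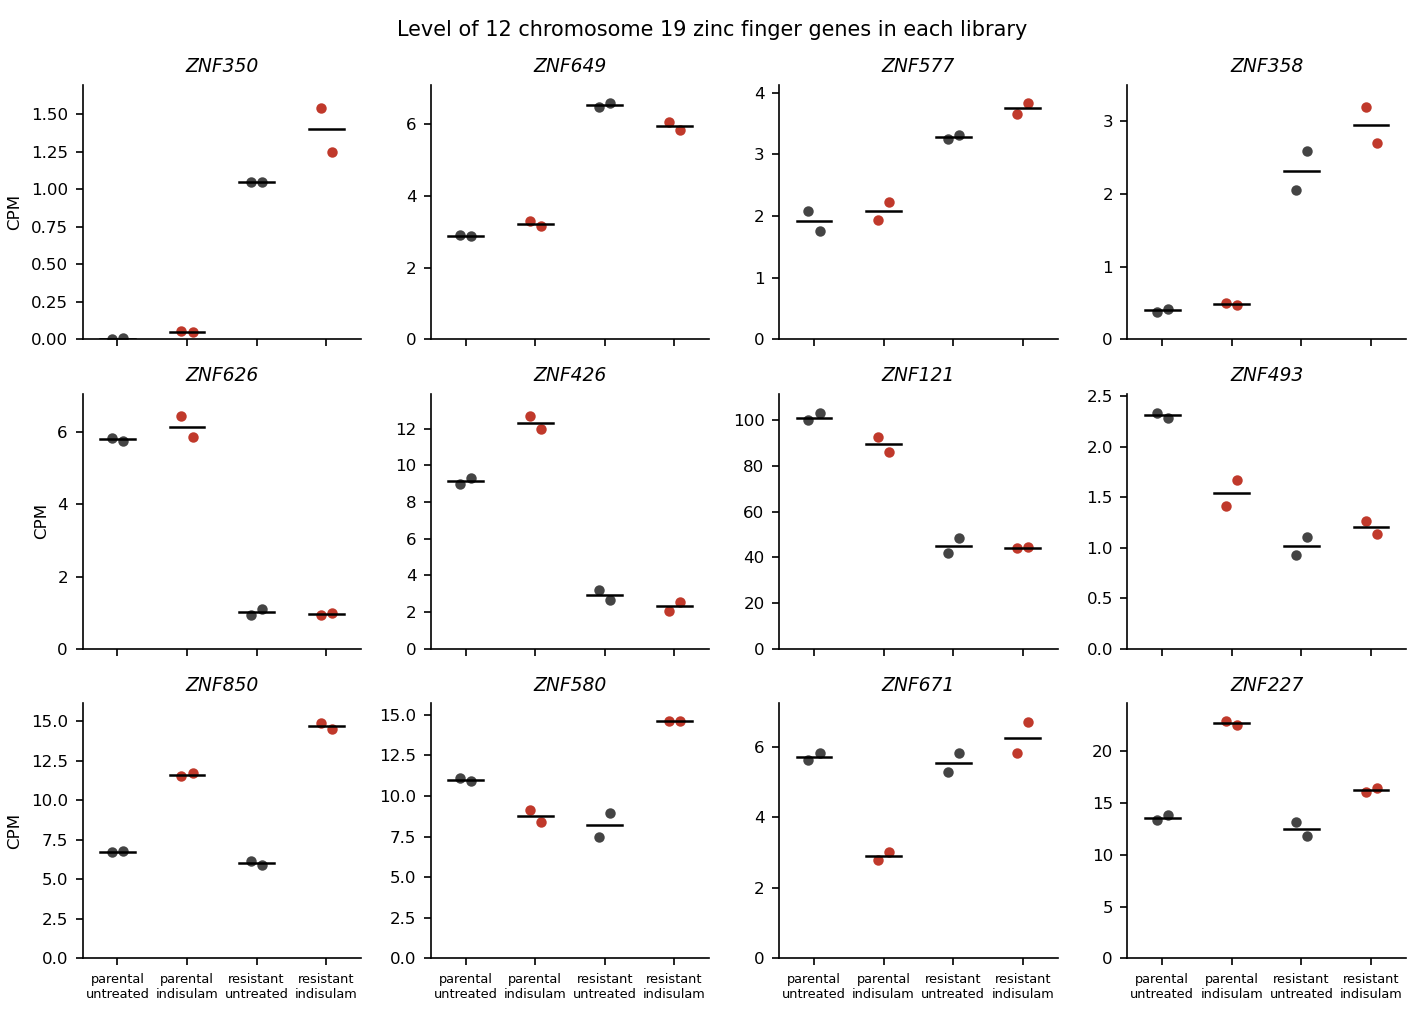
Level in CPM (linear axis from 0) of 12 members in each of the 8 libraries, with untreated libraries in grey, indisulam libraries in red and the mean of each group as a bar. ZNF350, ZNF649, ZNF577 and ZNF358 stand higher and ZNF626, ZNF426, ZNF121 and ZNF493 lower in untreated resistant than in untreated parental libraries, while ZNF850, ZNF580, ZNF671 and ZNF227 were chosen for their response to the drug.

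Elsewhere on the long arm, 9 of the 22 members between 36.18 and 37.82 Mb were lower in resistant cells off the drug and 2 were higher (median -0.08). Over all genes tested 29.9% were lower and 30.3% higher. ZNF585B was picked from this group after its values were seen. ZNF585B was at 12 and 12.6 CPM in parental and 5.86 and 6.59 CPM in untreated resistant libraries (-0.99), and it shares exon positions with ZNF383 on the opposite strand. Of the reads of that pair ZNF383 held 41.1%, so its values are uncertain. ZNF383 was at 7.26 and 7.36 against 5.39 and 4.84 CPM off the drug (-0.51 ± 0.074) and at 9.24 and 8.96 against 4.26 and 4.73 CPM on it (-1.01 ± 0.074, adjusted p = 1.8e-11). In the last group, from 57.19 to 58.48 Mb, 17 of 39 members were higher and 6 lower off the drug (median 0.07), beside 30.3% and 29.9% of all genes tested. ZNF552 was at 6.04 and 6.65 against 9.0 and 8.72 CPM (0.48 ± 0.065, adjusted p = 7.4e-07), with 39.9% of the reads of the pair it forms with ZNF586 on the opposite strand, and ZNF584 at 6.93 and 6.94 against 9.48 and 8.78 CPM (0.40 ± 0.062, adjusted p = 6.3e-06). ZNF671, in the same group, was not called off the drug (-0.05 ± 0.082, adjusted p = 0.66) and was higher in resistant cells on it (1.12 ± 0.092, adjusted p = 1.4e-10).

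Members with a described role were also followed as a list. Of 17 such genes 14 were members, and 7 were higher and 5 lower with indisulam in parental cells, 3 and 3 in resistant cells, and 2 and 5 between the untreated lines. Over all genes tested the shares higher and lower were 31.6% and 26.6%, 24.9% and 25.8%, and 30.3% and 29.9% in the same order. ZNF224, a repressor of the aldolase A gene, fell in parental cells (-0.32 ± 0.063, adjusted p = 1.4e-04) and was at 7.21 and 7.42 CPM off and 7.74 and 7.86 CPM on the drug in resistant cells (0.09 ± 0.066, adjusted p = 0.24), with 48.7% of its transcript nearly identical to another gene. ZNF420, which restrains p53-driven cell death, rose in parental cells (0.25 ± 0.055, adjusted p = 3.9e-04) and fell in resistant cells (-0.22 ± 0.063, adjusted p = 0.0051). ZNF274 fell in both lines (-0.19 ± 0.033 and -0.20 ± 0.034, adjusted p = 3.7e-05 and 2.9e-05). ZNF304, which recruits TRIM28 to silenced genes in colon cancer, rose in both (0.16 ± 0.040 and 0.13 ± 0.041), but the parental rise was not called with library totals alone (0.09, adjusted p = 0.059), and the rise in resistant cells was not called by the DESeq2 Wald test (0.13, adjusted p = 0.070) or without treated resistant replicate 2 (0.12, adjusted p = 0.076).

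The proteins through which KRAB zinc fingers act were counted from a list of 27 genes, all of which were tested. In parental cells 14 rose and 7 fell with indisulam (median 0.09), and in resistant cells 5 rose and 10 fell (median -0.02). All 27 lay above 10 CPM, where 50.5% of all genes rose and 24.5% fell in parental cells and 26.5% rose and 38.1% fell in resistant cells. TRIM28 itself was at 634, 683, 650 and 626 CPM in untreated parental, treated parental, untreated resistant and treated resistant cells, and rose by 0.11 in parental cells. In resistant cells its change of -0.06 was not called, and the responses differed by -0.16. SETDB1, its partner methyltransferase, was at 42.0, 46.0, 43.5 and 42.9 CPM in the same order, and rose by 0.13 in parental cells. TASOR, the core of the HUSH silencing complex, fell in both lines (-0.36 and -0.23). Other HUSH-linked genes of the list did not follow it. In parental cells MPHOSPH8 (0.10) and MORC2 (0.09) rose and PPHLN1 was not called. In resistant cells none of these was called (-0.07, 0.01 and -0.06 in the same order). The maintenance methyltransferase DNMT1 fell in both lines (-0.27 and -0.31), and so did its cofactor UHRF1 (-0.27 and -0.23). The de novo methyltransferase DNMT3B was at 18.3 and 16.5 CPM in untreated parental and treated parental cells and at 19.7 and 34.0 CPM in untreated resistant and treated resistant cells, a rise of 0.79 in the latter. Between the untreated lines 8 of the 27 genes were higher and 9 lower in resistant cells, and CHD3, a remodeller that binds TRIM28, was at 67.7 against 118 CPM (0.80).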

How the data were processed

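RNA was measured in 8 libraries of Panc10.05 cells, grouped by sample title. The authors made stranded libraries from polyadenylated RNA, aligned reads with HISAT2 2.2.1 to GRCh38 and deposited raw read counts per gene. HTSeq and Picard are also named in the submitters' processing notes, and duplicates were counted apart. The strand setting and annotation release of the counting were not given in the sources used here. GENCODE release 44 matched 60419 of 60675 identifiers.

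The counts were fitted with edgeR 4.0.16 in R 4.3.3 (filterByExpr, TMM scaling, robust quasi-likelihood model of 4 group means, 4 residual degrees of freedom). Treated cells were compared with untreated ones in either line, the lines were compared with and without indisulam, and the responses were compared by their interaction. CPM are TMM-scaled, except in the level rule, which used plain library totals. Standard errors are the log2 fold change over the square root of the F statistic. The low sampling error of these deep libraries leaves the number of libraries as the limit, and intervals cover counting error only, since the reads carry no molecular identifiers.

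Fingers, KRAB boxes and SCAN domains were found as letter patterns in proteins translated from GENCODE coding sequences, and near-identical stretches with blastn 2.17.0. Position groups were split at gaps over 500 kb. The members, lists and rules were chosen with earlier results of these data known. By rule the text names, for each contrast, the 6 members with the largest rise and fall among called members with a mean of at least 1 CPM and libraries apart, the 6 highest members, and a list of 17 genes with a known role. That gave 50 members, and the text takes its examples from them. ZNF350, ZNF570 and members named for their place on the chromosome were chosen after their values were seen. Alternatives were DESeq2 1.42.0 size factors and Wald test, library totals, other filters, only the groups compared, a replicate block, a stricter p, a test against 0.5 log2 units, a GC and length correction (mgcv 1.9.3), protein-coding genes alone, members without shared exons or of at least 2 CPM, and each library left out. Leaving out the short arm was added after the data had been seen. The code was tested on simulated counts. Figures were drawn with matplotlib 3.10.9.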

Additional observations from a re-analysis of the deposited data

Results flagged for a closer look

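The 37 members given here differed between the lines by the interaction term of the edgeR model (adjusted p under 0.05), in which line and exposure cannot be told apart. They were named in any of the comparisons, for their level or from the list of known roles. ZNF350 and ZNF570 were chosen after their values were seen. The 37 are part of the members called in this term, which were 38 above and 39 below. Values are the resistant minus the parental log2 change with indisulam.

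The resistant change lay above the parental one for ZNF444 (0.28), ZNF331 (0.39), ZNF419 (0.40), ZNF224 (0.41), ZNF586 (0.42), ZNF555 (0.45), ZNF850 (0.50), ZNF77 (0.50), ZNF490 (0.71), ZNF493 (0.82), ZNF415 (0.93), ZNF738 (1.05), ZNF671 (1.16), ZNF580 (1.16) and ZNF570 (1.21). ZNF570 averaged only 0.573 CPM, and 0.258 CPM in untreated resistant cells, and held 6.69% of the reads of the pair it forms with ZNF569, so its value is uncertain. After the correction for GC content and length the difference of ZNF444 was not called (-0.03, adjusted p = 0.71), and neither was the fall of ZNF580 in parental cells.

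The resistant change lay below the parental one for ZNF566 (-0.50), ZNF383 (-0.50), ZNF766 (-0.48), ZNF737 (-0.48), ZNF420 (-0.47), ZNF317 (-0.46), ZNF525 (-0.40), ZNF557 (-0.38) and ZNF227 (-0.36). It also lay below it for ZNF558 (-0.35), ZNF146 (-0.30), ZNF567 (-0.27), ZNF544 (-0.25), ZNF581 (-0.22), ZNF91 (-0.21), ZNF507 (-0.20), ZNF551 (-0.20) and ZNF562 (-0.15). ZNF426 (-0.76) and ZNF136 (-0.62) had the largest differences in this direction among members above 1 CPM. For ZNF350 (-2.75) the value rests on 1 read in untreated parental libraries. It is a description with no test, since ZNF350 became a member through the resistant libraries alone. The DESeq2 Wald test did not call it. The value was -1.92 without untreated parental replicate 1, and -2.72 and -2.76 without either treated parental library. The same correction ended the calls of ZNF91 (-0.10, adjusted p = 0.12), ZNF567 (-0.16, adjusted p = 0.076), ZNF649 (-0.21, adjusted p = 0.13) and ZNF737 (-0.38, adjusted p = 0.078). With library totals alone, ZNF91 (-0.10), ZNF567 (-0.16), ZNF581 (-0.10), ZNF649 (-0.18) and ZNF737 (-0.37) were not called, and the same 5 were not called without genes under a mean of 1 CPM. The DESeq2 Wald test did not call ZNF490 (0.70), ZNF649 (-0.30) or ZNF737 (-0.48). The difference of ZNF649 (-0.29) was not called when any 1 of the 8 libraries was left out, with values of -0.24 to -0.31. The call was also lost for ZNF490 without treated parental replicate 1 (0.52), for ZNF567 without treated parental replicate 2, untreated resistant replicate 1 or treated resistant replicate 1 (-0.20 to -0.22), for ZNF581 without treated parental replicate 1 or treated resistant replicate 2 (-0.17 and -0.18), and for ZNF737 without untreated parental, treated parental or untreated resistant replicate 1 or treated resistant replicate 2 (-0.26 to -0.47).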

How the results depend on the processing

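Counts of members are given as a share of members tested. The shares of all genes called at these settings are not given here, so nothing particular to the members is read from these percentages. Against 0.5 log2 units (glmTreat) 2.12% rose and 1.59% fell with indisulam in parental cells, 2.65% rose and 0.00% fell in resistant cells, 2.12% were higher and 11.1% lower in resistant cells off the drug, 5.82% higher and 10.6% lower on it, and the response differed upward in 1.06% and downward in 0.00%. At an adjusted p under 0.01, 12.7% were higher in resistant cells off the drug. With short arm members left out, 27.4% were lower off and 29.6% lower on the drug. For the difference of responses, the share above was 11.6% by the DESeq2 Wald test, and the share below was 10.6% with library totals alone, 10.9% without genes under a mean of 1 CPM and 13.2% among protein-coding genes alone. With the GC and length correction ZNF444 reversed between the lines on the drug, to -0.20. Its difference of responses was -0.03 and no longer called (adjusted p = 0.71). These log2 values were the same when the replicate block was added to this correction, and the replicate block alone did not reverse ZNF444. The cause was not tested. Without filtering, the median of all genes in the difference of responses moved to 0.154.

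The replicate numbers did not pair the samples (correlations of -0.058 to 0.027). With the replicate block, 45.5% of members rose and 15.9% fell in parental cells, and none of the 112 called pairs of named gene and comparison lost its call. Leaving out 1 library gave 36.5% to 45.5% higher in parental cells with indisulam and 26.5% to 36.0% in resistant cells, and 34.9% to 43.9% lower in resistant cells off the drug. No named member changed direction when 1 library was left out.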
